A study of Notophthalmus viridescens with 12 samples.

Results

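The late and the immediate responses of the newt dorsal iris to lens removal were compared by setting irises collected 4 days post-lentectomy (dpl) against irises collected 6 h post-lentectomy (hpl). The comparison took in 6 of the 12 libraries of the series, 3 at 4 dpl and 3 at 6 hpl, and used the transcripts at a value of 1 or more in at least 3 of these 6 libraries. This rule kept 847463 of the 856451 assembled transcripts. All groups were bulk RNA sequencing libraries of dorsal iris from adult, wild-caught eastern newts (Notophthalmus viridescens), and each library pooled the irises of both eyes of 3 or 4 animals. The 4 dpl and 6 hpl animals had undergone lentectomy under tricaine anesthesia. The labels give tissue, time and replicate and name no agent. Libraries at 1 dpl and from intact eyes, 3 each, entered as the remaining groups of the series. The sources used here do not give age in years, sex or collection batch.

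Newts regrow a lens from the dorsal iris. After the lens is removed, pigment epithelial cells of the dorsal iris shed their pigment, re-enter the cell cycle and turn into lens cells, whereas the ventral iris does not form a lens in normal regeneration. The first hours after such an injury are known as a phase of acute inflammatory and stress signaling. The days after it are those in which macrophages take up discharged pigment and the pigment epithelial cells begin to cycle.

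Values were a normalised abundance per assembled transcript, averaged by the authors over repeated estimates from Salmon, a program that assigns reads to transcripts. Each transcript was known only by an ID made of a digit and a number, and the table paired no ID with a gene name. The tissue could therefore not be checked against marker genes, and the results below concern transcripts, several of which can belong to 1 gene. The values of a library summed to 36414784, 36837862 and 40770545 at 4 dpl, against 38120377, 33349931 and 40114195 at 6 hpl. The library medians were 8.40, 8.54 and 8.42 at 4 dpl, against 8.46, 8.44 and 8.41 at 6 hpl. Read depth per library cannot be recovered from these values, so no counting interval is given. In a bulk sample, fewer cells of a type and less RNA per cell cannot be told apart.

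The replicate libraries resembled each other more than they resembled libraries of the other time. Across the tested transcripts, Pearson's r of log2(value + 1) was 0.773 to 0.795 among the 3 pairs of 4 dpl libraries and 0.826 to 0.839 among the 3 pairs of 6 hpl libraries. Over the 9 pairs that joined a 4 dpl with a 6 hpl library it was 0.679 to 0.702, below every value within a time point. The coefficients were taken across transcripts, and transcripts are not independent. The 4 dpl libraries were the more variable group. Over all tested transcripts the SD among 3 libraries had a median of 0.55 log2 units at 4 dpl and 0.46 at 6 hpl, and the SD was larger at 4 dpl in 58.5% of transcripts. The excess was found at low abundance: among transcripts with a mean under 5 the median SD was 0.70 at 4 dpl and 0.57 at 6 hpl, while among those with a mean from 1000 to 10000 it was 0.24 at 4 dpl and 0.28 at 6 hpl.

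The iris at 4 dpl differed from that at 6 hpl in 33251 transcripts, or 3.92% of those tested. These were called by limma with Benjamini-Hochberg adjustment at an adjusted p under 0.05, from a fit to all 12 libraries. At 4 dpl, 17955 transcripts (2.12%) had risen and 15296 (1.8%) had fallen, so that 54.0% of the calls were higher. Calls that rose had a median log2 difference of 2.49 (quartiles 1.98 and 3.04), and calls that fell one of -2.41 (quartiles -2.91 and -2). The median over all transcripts tested was -0.04. No call differed by less than 1.01 log2 units. The median standard error of a difference was 0.55 among calls and 0.54 among all tested transcripts. An unadjusted p under 0.05 was found for 154568 transcripts. The values of the 4 dpl and 6 hpl libraries did not overlap in 25.5% of all transcripts, 12.4% higher and 13% lower at 4 dpl. They did not overlap in 99.3% of the calls, which were chosen on these same values, so that share is a description only.

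Which direction held the majority was not settled. With each library scaled on its abundant transcripts, which moved the median of all differences to -0.16, 13431 transcripts were higher and 16521 lower, or 44.8% higher. Leaving out 4 dpl replicate 2 also turned the majority, with 10485 higher and 11348 lower.

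Large differences were more often losses. A log2 difference of 5 or more was reached by 134 transcripts that rose and by 335 that fell. Among the 17955 transcripts that rose, 867 were listed at 0 in all 3 libraries at 6 hpl, and among the 15296 that fell, 743 were listed at 0 in all 3 libraries at 4 dpl. Because Salmon's estimation can set a transcript to 0, such values were not taken to show that it was lacking. Most calls reached a value of 1 at both times: 11830 of those that rose and 9361 of those that fell were at 1 or more in all 6 libraries. This was less frequent than among all tested transcripts, of which 728147 of 847463 were at 1 or more in all 6.

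The filter on low values let in transcripts seen at a single time. At the edge of the rule, 7743 transcripts were at 1 or more in exactly 3 of the 6 libraries, with a median highest value of 8.93, and 3501 just outside it reached 1 in exactly 2, with a median highest value of 3.18. Of the tested transcripts, 1567 passed through the 4 dpl libraries alone and 2491 through the 6 hpl libraries alone. These had to differ in their values by construction, and 1135 and 1019 of them were called.

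Abundant transcripts were called more often. More of their calls were higher at 4 dpl with all libraries, a contrast that rested on single 6 hpl libraries for means of 100 or more. Abundance was taken as the mean of the 4 dpl and 6 hpl group means. Of the 136528 transcripts with a mean under 5, 1.57% were called. The share was 4.18% from 10 to 20, 10.2% from 50 to 100, 16.5% from 1000 to 10000 and 21.6% of the 213 transcripts at 10000 or more. Calls higher at 4 dpl made up 48.9% of the calls in the lowest class and 69.6% in the highest. At a mean of 100 or more, 4858 of 36292 transcripts (13.4%) were called, 2979 higher and 1879 lower, or 61.3% higher. Among the 707 calls with a mean of 1000 or more, 68.7% were higher, and 57.8% of 965 calls with scaling on abundant transcripts. In that scaling the abundant class kept a majority of higher calls, at 53.1%, although all calls together did not. Without 6 hpl replicate 2, 54.7% of abundant calls and 55.5% of all calls were higher, and without 6 hpl replicate 1, 60.9% and 64.1%, so that the contrast turned. For calls with a mean of 1000 or more the share was 59.7% without 6 hpl replicate 2 and 70.2% without 6 hpl replicate 1, above that of all calls. The median log2 difference of the abundant class was 0.07 as deposited.

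**Figure D1:**
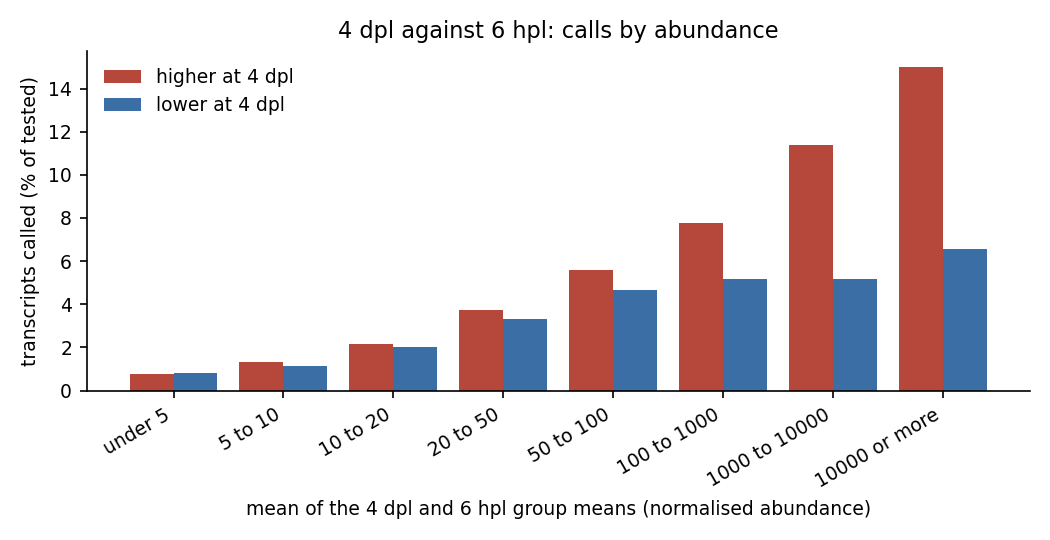
Percent of tested transcripts called higher (red) or lower (blue) at 4 dpl than at 6 hpl, on the vertical axis, in 8 classes of the mean of the 4 dpl and 6 hpl group means. Both shares grow with abundance, and the red bar is the taller in every class but the lowest, where 0.768% were higher and 0.802% lower.

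The called transcripts also moved a visible part of each library. Transcripts called higher took 12.6%, 14.1% and 12.7% of the summed values of the 4 dpl libraries, against 3.41%, 2.53% and 2.75% in the 6 hpl libraries. Transcripts called lower took 1.14%, 1.19% and 1.18% of the sum at 4 dpl, against 9.88%, 5.62% and 6.57% at 6 hpl. The calls were chosen on these values, so the shares are descriptive. In each library the median value of the transcripts called higher was 27.8, 27.8 and 27.6 at 4 dpl, against 4.09, 3.90 and 3.99 at 6 hpl. For the transcripts called lower it was 3.72, 3.94 and 3.36 at 4 dpl, against 27.6, 22.5 and 24.5 at 6 hpl. No library of either group stood apart in these medians.

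Many of the most abundant transcripts were shared by the times. Of the 10 transcripts with the highest mean, 8 were shared by the 4 dpl and the 6 hpl lists. Of the 100 highest, 61 were shared, and of the 1000 highest, 653. In the list of 100 at 4 dpl, 26 transcripts were called higher at 4 dpl and 0 lower. In the list of 100 at 6 hpl, 13 were called lower at 4 dpl and 1 higher. Each list was ranked on the mean of its own time, which favors calls in that direction, so these counts are a description. Over all tested transcripts 2.12% were called higher and 1.8% lower. At a mean of 10000 or more these shares were 15% and 6.57%.

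The highest transcripts took a smaller share of the sum at 4 dpl, up to the 100 highest. The 10 highest transcripts of a library took 6.38%, 6.30% and 8.27% of its sum at 4 dpl, against 9.12%, 9.88% and 10.8% at 6 hpl. The means were 6.98% ± 1.11 at 4 dpl and 9.93% ± 0.83 at 6 hpl (SD, n = 3 each). The groups did not overlap, but 0.1 is the smallest p of an exact two-sided permutation test at this size, and it was the p found (0.175 after adjustment over 7 such measures). The 100 highest took 18.4% ± 1.01 at 4 dpl and 21.4% ± 1.26 at 6 hpl (exact permutation p = 0.1, adjusted 0.175). The 1000 highest took 32.9%, 33.7% and 34.9% at 4 dpl, against 37.8%, 33.1% and 37.1% at 6 hpl, and these groups overlapped (exact permutation p = 0.3, adjusted 0.35). Fewer transcripts were detected at 4 dpl, with 804071, 819730 and 823014 at 1 or more at 4 dpl, against 826051, 829106 and 836190 at 6 hpl (exact permutation p = 0.1, adjusted 0.175). The number at 1000 or more was 4402 ± 419 at 4 dpl and 3893 ± 513 at 6 hpl, with overlapping groups (exact permutation p = 0.3, adjusted 0.35). The library sums did not separate the groups either (exact permutation p = 0.9).

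The differences were also read in libraries that took no part in the fit. The filter on low values still used all 6 libraries. The transcripts themselves had been assembled by the study from the reads of each time point. These readings were therefore not fully independent, and the part of the assembly in them was not tested. For the 1567 and 2491 transcripts that passed through a single time alone, the filter itself set the sign in the held-out pair. They were kept in the shares below, and 1135 and 1019 of them were called in the fit to all libraries. Their part in the held-out calls was not counted, so the shares below are a description. A single 4 dpl and a single 6 hpl library were held out together in each of the 9 possible pairs, transcripts were called on the remaining 10 libraries, and the difference was then taken between the 2 libraries held out. Between 5335 and 5980 transcripts were called higher in these fits, and 93.2% to 95.5% of them were also higher in the held-out 4 dpl library than in the held-out 6 hpl library. Between 3685 and 5617 were called lower, and 91.2% to 94.1% of them were also lower in the held-out pair. Over all transcripts tested the signs were the same in 62.7% to 64.4%. The size shrank in the held-out libraries. The median log2 difference of the higher calls was 3.24 to 3.42 in the fits and 2.30 to 2.68 in the held-out pairs, and that of the lower calls was -3.35 to -3.20 in the fits and -2.46 to -1.87 in the held-out pairs. Differences of the calls as fitted are thus larger than those that libraries outside the fit gave.

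The intact and 1 dpl libraries place the calls in the time course. Among the 17955 transcripts called higher at 4 dpl, the group means on the log2(value + 1) scale had a median of 2.79 in intact iris, followed by 2.23 for 6 hpl, 3.55 for 1 dpl and 4.78 for 4 dpl. Among the 15296 called lower it was 3.25, 4.64, 3.30 and 2.13 in the same order. All tested transcripts together had medians from 3.12 to 3.17 at the 4 times. The first set was thus at its lowest median at 6 hpl and its highest at 4 dpl, and the second the other way round. The sets were chosen for distant 6 hpl and 4 dpl levels, which favors extremes at these times, so this order is a description.

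**Figure D2:**
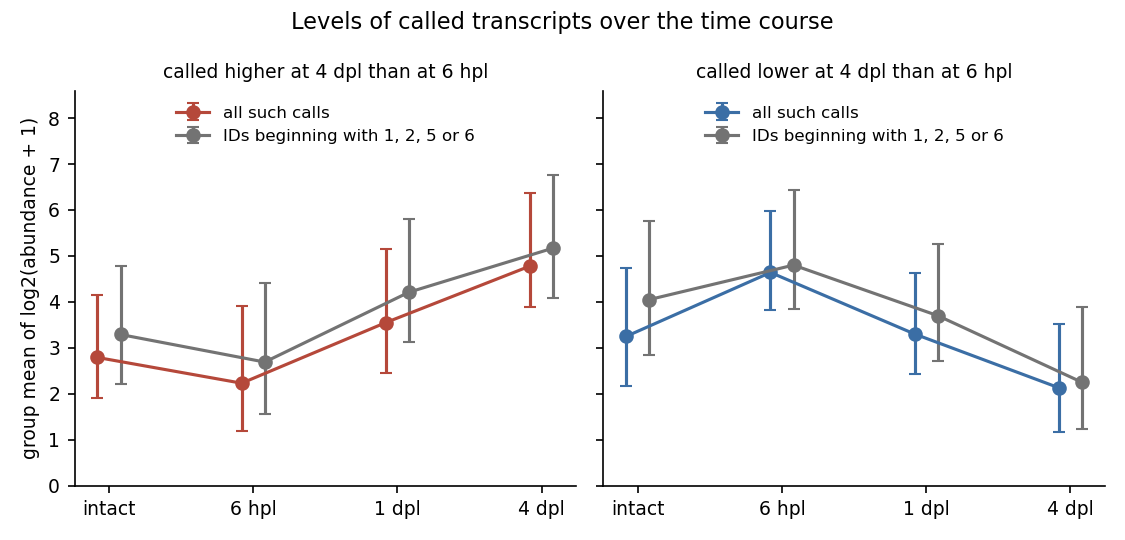
Group means of log2(abundance + 1) over the time course for transcripts called higher (left) and lower (right) at 4 dpl than at 6 hpl, with points at the median and bars at the quartiles over transcripts. Colored points hold all 17955 or 15296 calls, and grey points the 5910 or 4753 calls whose ID begins with 1, 2, 5 or 6. The 4 dpl and 6 hpl levels were used to choose the transcripts. The intact and 1 dpl libraries entered the choice only through the estimate of spread.

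The change was about midway at 1 dpl. For calls higher at 4 dpl, the 1 dpl mean lay between those of 6 hpl and 4 dpl in 83.6%, at or below both in 12.3% and at or above both in 4.03%. Of the difference between 6 hpl and 4 dpl, a median of 45% was present by 1 dpl (quartiles 20.4% and 66.7%). For calls lower at 4 dpl, the 1 dpl mean lay between in 89.4%, and a median of 54.9% of the difference was present by 1 dpl (quartiles 35.2% and 75.3%). Over all tested transcripts the 1 dpl mean lay between in 38.5%. The choice of calls for distant 4 dpl and 6 hpl means itself favors a value between them, so these shares are a description. Between 1 dpl and 6 hpl, limma called 4882 of the same 847463 transcripts (0.576%), 2165 higher (0.255%) and 2717 lower (0.321%) at 1 dpl. Between 4 dpl and 1 dpl it called 5917 (0.698%), 4235 higher (0.5%) and 1682 lower (0.198%) at 4 dpl. Each of these steps shares 3 libraries with the comparison of 4 dpl and 6 hpl, which had 33251 calls.

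Transcripts that rose by 4 dpl had intact levels closer to 6 hpl than to 4 dpl in most cases. The intact mean was within 1 log2 unit of the 6 hpl mean, and not of the 4 dpl mean, for 11487 of the 17955 (64.0%). It was within 1 log2 unit of the 4 dpl mean alone for 2252 (12.5%), which were therefore lower at 6 hpl and back near the intact level at 4 dpl. A further 3843 (21.4%) had an intact mean near neither, of which 1300 were lower in intact iris than at both times, and 2.08% had one near both. Over all transcripts tested, the intact mean was near the 6 hpl mean alone in 17.0%, near the 4 dpl mean alone in 11.4% and near both in 62.6%, so that nearness to 6 hpl as such was no more frequent among those that rose. The median log2 difference of the transcripts that rose was 2.06 for 4 dpl minus intact and -0.31 for 6 hpl minus intact. Against intact iris, limma called 48036 of the same transcripts at 4 dpl (5.67%), 31971 higher (3.77%) and 16065 lower (1.9%). At 6 hpl it called 22098 (2.61%), 17174 higher (2.03%) and 4924 lower (0.581%). These comparisons share the intact libraries.

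Transcripts that fell by 4 dpl fell into several classes by their intact level. The intact mean was near the 4 dpl mean alone for 6059 of the 15296 (39.6%), so that these were higher at 6 hpl than both in intact iris and at 4 dpl. It was near the 6 hpl mean alone for 5233 (34.2%), which were still at the intact level at 6 hpl and below it at 4 dpl. It was near neither for 3568 (23.3%) and near both for 436 (2.85%). The median log2 difference was -1.02 for 4 dpl minus intact and 1.34 for 6 hpl minus intact. These classes depend on the pseudocount, which sets how close low values lie and also which transcripts are called. Including those near both, the intact mean was near the 4 dpl mean for 42.5% of the transcripts that fell. With a pseudocount of 0.1 it was near for 29.6% of 7574 called lower, and with 10 for 83.7% of 21694. For the transcripts that rose, the intact mean was near the 6 hpl mean for 66.1%. With these pseudocounts it was near for 61.2% of 8817 and 95.5% of 25251 called higher.

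In the abundant class, at a mean of 100 or more, the 1 dpl mean again lay between for most calls, but the intact level was placed otherwise. Among abundant transcripts that rose, the intact mean was at or below both times in 74.4%, against 38% of all that rose. Over all tested transcripts it was at or below both in 33.5%. The share over all abundant transcripts, called or not, was not taken, so 74.4% may not be particular to those that rose. Group means of the transcripts that rose had a median of 6.33 in intact iris, followed by 6.56 for 6 hpl, 7.5 for 1 dpl and 8.73 for 4 dpl. The step between intact iris and 6 hpl was within reach of the scaling, on which the share of 74.4% also depends. Scaling on abundant transcripts would add 0.35, 0.22 and 0.14 log2 units to the intact libraries, and 0.04, -0.01 and -0.22 to the 6 hpl libraries. The 1879 abundant transcripts that fell had medians of 7.23, 8.44, 7.11 and 6.01 in the same order. Their intact mean was near the 6 hpl mean alone in 32.4% and near the 4 dpl mean alone in 27.4%. Among all calls that fell these shares were 34.2% and 39.6%, so the larger class differed.

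Direction was tied to the first digit of the transcript ID. Of the calls whose ID began with 7 or 8, 10229 of 11050 (92.6%) were higher at 4 dpl, and of those with 3 or 4, 1494 of 11139 (13.4%). With each of the 12 libraries left out in turn, these shares ran from 90.2% to 93.3% and from 11.5% to 19.7%. IDs beginning with 7 or 8 made up 57.0% of the higher calls and 5.37% of the lower, from 20.9% of the transcripts tested. IDs beginning with 3 or 4 made up 8.32% of the higher calls and 63.1% of the lower, from 30.6% of those tested. The shift was not limited to calls: the median log2 difference over all tested transcripts was 0.63 for digit 7, 0.22 for digit 8, -0.56 for digit 3 and -0.26 for digit 4. It was from -0.05 to 0.06 for digits 1, 2, 5 and 6. Digit 9, with 6273 tested transcripts, had a median of 0.1, and 80.7% of its 399 calls were higher. The study assembled the reads of each time point separately and then merged the assemblies. The sources used here do not say what the digit stands for, and its part in the calls was not tested.

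**Figure D3:**
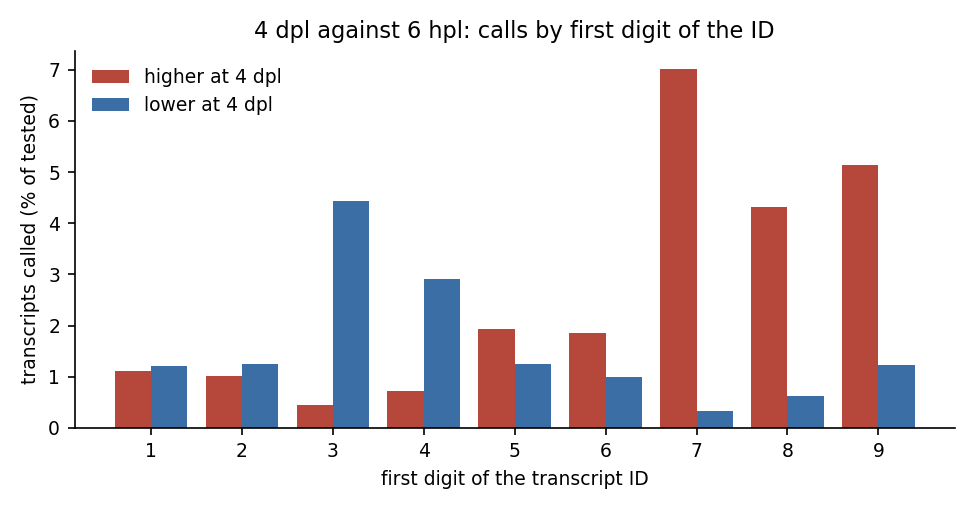
Percent of tested transcripts called higher (red) or lower (blue) at 4 dpl than at 6 hpl, by the first digit of the transcript ID. Digits 7 and 8 hold mostly higher calls (7.02% and 4.32% of tested), digits 3 and 4 mostly lower ones (4.44% and 2.91%), and digits 1, 2, 5 and 6 have shares of each between 1.00% and 1.94%. Digit 9 also holds mostly higher calls (5.13% higher and 1.23% lower).

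Calls were also made among IDs that begin with 1, 2, 5 or 6, a pool chosen after seeing the values because its shifts were small. Among the 404168 tested transcripts with IDs beginning with 1, 2, 5 or 6, whose median log2 difference was 0.00, 10663 (2.64%) were called, 5910 higher and 4753 lower at 4 dpl, or 55.4% higher. When these alone were tested, 7682 were called and 56.1% of them were higher. The pool joined opposite leans: digits 5 and 6 leaned to higher calls, with 62.9% of 5836, and digits 1 and 2 to lower calls, with 46.4% of 4827 higher. With scaling on abundant transcripts these shares were 53.3% and 35.3%, and with a pseudocount of 10 they were 63.9% and 49.8%. The lean of digits 1 and 2 turned without 6 hpl replicate 1, at 55.1% higher, and without 6 hpl replicate 3, at 53.3%. Among abundant transcripts the contrast by digit was smaller but remained: 82.9% of calls were higher for digits 7 and 8, 41% for digits 3 and 4, 63.6% for digits 5 and 6 and 54.4% for digits 1 and 2. The 1 dpl level of the calls with digits 1, 2, 5 or 6 lay between 6 hpl and 4 dpl in 85.3% of those that rose and 88.6% of those that fell. Of those that fell, 49.1% were near the intact level at 6 hpl alone and 23.5% at 4 dpl alone, against 34.2% and 39.6% of all calls that fell, so that the larger of these classes changed with the IDs counted.

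As the table gave no names, 4 transcripts were singled out by rule, 2 that rose and 2 that fell. Those eligible were called, averaged at least 5 across the 6 libraries and had no overlap of the 3 and 3 values, which 16785 transcripts that rose and 14085 that fell met. In each direction the transcript with the largest difference was taken, and the one with the largest difference among those at 1 or more in all 12 libraries. They were chosen for extreme differences, and the files used here give no function for them.

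Transcript 7_56053696 had the largest rise. Its values were 33262, 51102 and 33830 at 4 dpl, against 5714, 3.73 and 4.93 at 6 hpl. The 3 libraries at 4 dpl were high, and at 6 hpl replicate 1 was high and the other two were near background. In intact iris it was at 8000, 19391 and 20158, and at 1 dpl at 6.13, 5.59 and 1.80. It was therefore abundant in intact iris and at 4 dpl, and low in 5 of the 6 libraries between them. The log2 difference of 4 dpl and 6 hpl was 9.47 (SE 1.56, limma adjusted p 0.001515). Leaving out 6 hpl replicate 1 gave 12.83, and leaving out 6 hpl replicate 2 gave 7.71. By group mean at 4 dpl it ranked 52 among all transcripts. Between 4 dpl and intact iris the difference was 1.40 log2 units and missed the threshold (limma adjusted p 0.6609), with higher values in all 4 dpl libraries.

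Transcript 7_55829927 rose at each time point. Its values were 2623, 3973 and 4842 at 4 dpl, against 11.3, 13.6 and 7.81 at 6 hpl. The libraries of each group lay close together and the groups were far apart. It was at 1.07, 3.92 and 2.02 in intact iris and at 214, 71.7 and 71.6 at 1 dpl. The log2 difference of 4 dpl and 6 hpl was 8.31 (SE 0.44, limma adjusted p 1.484e-08), of which 3.16 lay between 1 dpl and 6 hpl (limma adjusted p 0.002974) and 5.15 between 4 dpl and 1 dpl (limma adjusted p 3.093e-05).

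Transcript 2_11963360 had the largest fall, with uneven libraries behind it. Its values were 0, 5.65 and 0.861 at 4 dpl, against 116907, 3415 and 374 at 6 hpl. All 6 hpl libraries were above all 4 dpl libraries, but the 6 hpl values were spread widely. In intact iris it was at 5.46, 40.6 and 685064, so that a single intact library held nearly all of its abundance there, and at 1 dpl at 0.907, 4.22 and 3.05. The log2 difference of 4 dpl and 6 hpl was -11.17 (SE 2.62, limma adjusted p 0.01953). This call was lost when some single libraries were left out, which also makes a group smaller. The limma adjusted p was 0.109 without 6 hpl replicate 1 and 0.05031 without 6 hpl replicate 2. It was 0.06963 without 4 dpl replicate 1 and 0.06344 without 4 dpl replicate 3. Over its alternatives the adjusted p ran from 9.303e-05 to 0.109.

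Transcript 6_42945625 was high in all 6 hpl libraries and low in all 4 dpl libraries. Its values were 3.19, 6.22 and 1.09 at 4 dpl, against 11365, 4401 and 11143 at 6 hpl. The remaining groups were mixed, with 1.95, 4644 and 6249 in intact iris and 9659, 13.4 and 2.51 at 1 dpl. The log2 difference of 4 dpl and 6 hpl was -11.01 (SE 2.31, limma adjusted p 0.009565), and 1 dpl minus 6 hpl, at -6.71, missed it (limma adjusted p 0.2033). Of the 4 transcripts, 7_55829927 was the only one with no group that held both high and low libraries.

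**Figure D4:**
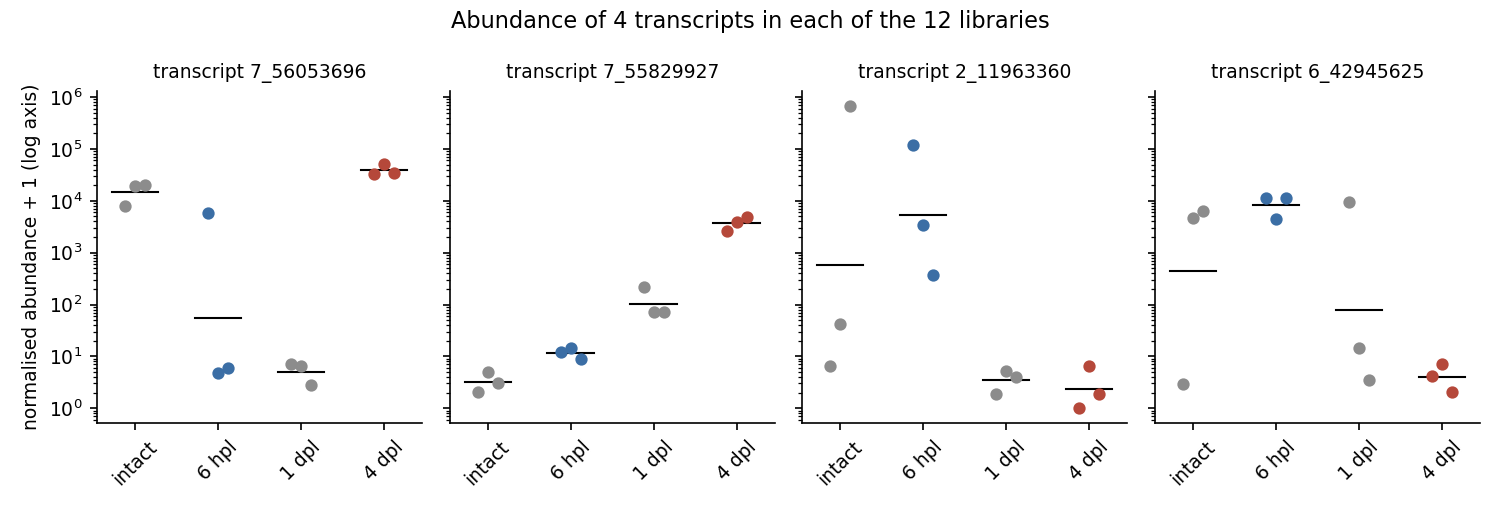
Normalised abundance + 1, on a log axis, of 4 transcripts in each library of intact iris, 6 hpl (blue), 1 dpl and 4 dpl (red), with bars at the mean of the log2 values. Transcripts 7_56053696 and 7_55829927 are high in all 4 dpl libraries, and 2_11963360 and 6_42945625 are low in all of them. In 3 of the 4 panels at least 1 group holds both high and low libraries.

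The number of calls fell whichever of the libraries compared was left out. Each such fit has a smaller group, which can by itself lower the number of calls. Leaving out any of the 6 libraries compared gave between 15888 and 21833 calls, against 33251 with all libraries, the lowest without 6 hpl replicate 1. Leaving out 6 hpl replicate 1 or 3 also raised the share of higher calls to 64.1% and 61.4%. Leaving out an intact or 1 dpl library, which only share in the estimate of spread, gave 30187 to 37340 calls. No transcript called as reported was called in the opposite direction under any of the 25 alternatives. In 99.3% of the calls the values of the 2 groups did not overlap, so leaving out a library could not turn their sign. The lack of opposite calls is therefore a description.

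**Figure D5:**
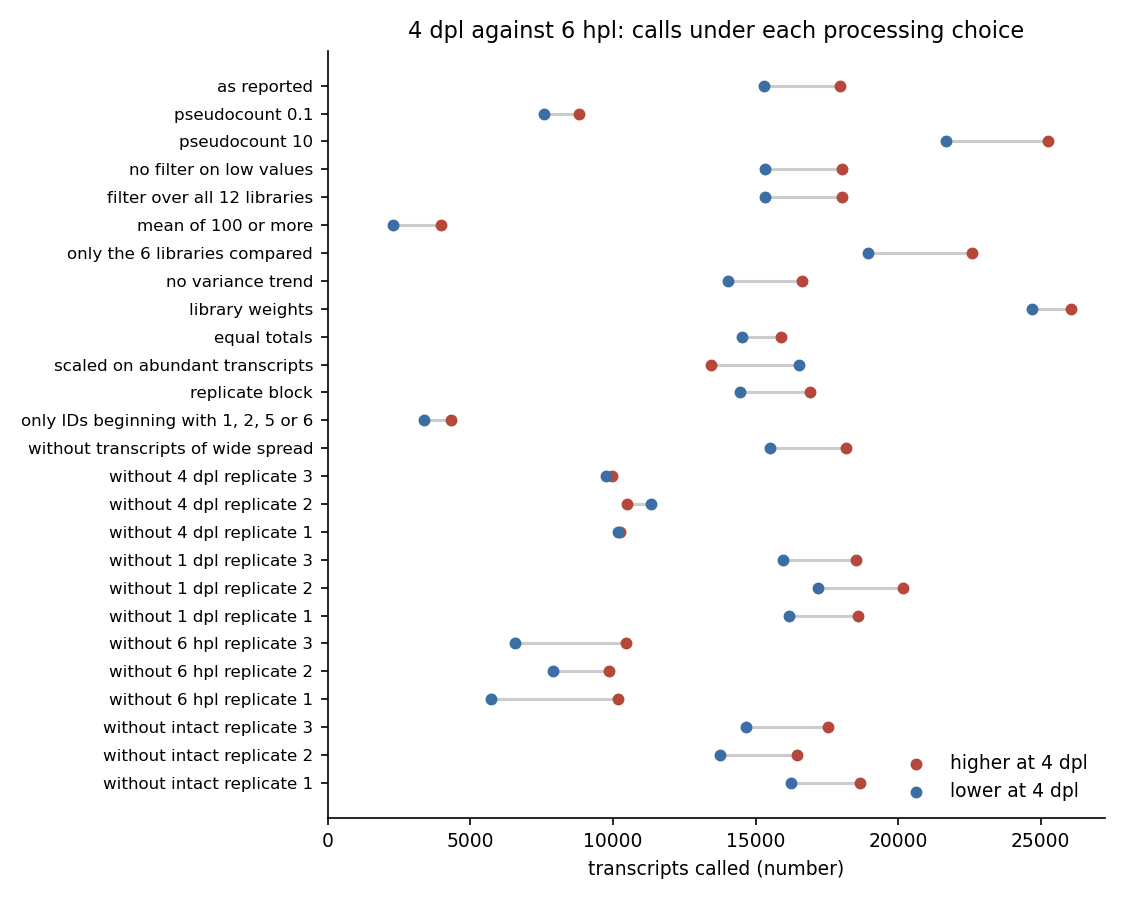
Number of transcripts called higher (red) and lower (blue) at 4 dpl than at 6 hpl, as reported and under each of 25 alternatives, a row each. The red point lies right of the blue one except with scaling on abundant transcripts and without 4 dpl replicate 2.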

How the data were processed

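The authors trimmed reads with Trim Galore, removed ribosomal reads with Bowtie2 against Silva, assembled each time point with Trinity, merged the assemblies with DRAP and estimated abundance with Salmon, without a genome. The sources used here name no versions. The deposited values were treated as an abundance signal: the authors described them as TPM, but library sums far exceeded those of TPM, and library medians were nearly equal, by a scaling whose details are not stated in them. The test laid out for TPM was kept. The study's own test, Swish, needs inferential replicates not analysed here.

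Values were transformed as log2(value + 1) and fitted in R 4.3.3 with limma 3.58.1 (empirical Bayes with variance trend), with 4 group means over 12 libraries and two-sided contrasts. Differences on this scale understate the change of low transcripts. Abundant transcripts had a mean of the 2 group means of 100 or more. The test was checked on simulated data. P-values measure the spread between pools of animals. Same-numbered 4 dpl and 6 hpl libraries did not deviate together over all tested transcripts. Named transcripts were called, averaged at least 5 over the 6 libraries and had groups that did not overlap; the largest difference in each direction was taken, overall and among those at 1 or more in all 12 libraries. Marker lists could not be applied without gene names. Alternatives covered the pseudocount, filter, scaling, spread model, replicate block and each library left out. The members, classes and rule for naming were chosen with earlier results of these data known. Holding out pairs, the subset of IDs and leaving out transcripts of wide spread were chosen after seeing the data.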

Additional observations from a re-analysis of the deposited data

How the results depend on the processing

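Of 25 alternatives, 15 left the total count within 1.5 times 33251. A pseudocount of 0.1 gave 16391 calls (8817 higher, 7574 lower), and testing only transcripts with a mean of 100 or more gave 6264 (3972 and 2292) of 36292. Library weights gave 50736, with 24682 lower, and IDs beginning with 1, 2, 5 or 6 alone gave 7682 (4312 and 3370) of 404168. Fewer transcripts were tested in the second and the last of these; for the pseudocount and the weights the cause was not tested. Without each of the 12 libraries in turn the total ran from 15888 to 37340, the higher calls from 9874 to 20160 and the lower calls from 5708 to 17180. The difference in the share of the 10 highest transcripts ran from -3.59 to -2.52 percentage points. Calls were 41527 with only the 6 libraries compared, 46945 with a pseudocount of 10 and 30650 without a variance trend.

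With the replicate number as a block there were 31336 calls, 16897 higher and 14439 lower, and 88.4% of the calls as reported were shared. Deviations of same-numbered 4 dpl and 6 hpl libraries from their group means correlated at -0.01, 0.01 and 0.03. The numbers thus showed no pairing over all tested transcripts. A batch that acts on few transcripts could not be seen in this way.

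The direction of the 4 named transcripts held under all alternatives run for them (23 to 25 each). The call held in all of these for 7_56053696, 7_55829927 and 6_42945625, and was lost in 4 of 24 for 2_11963360. Depth per transcript is unknown, so a low value cannot be given an interval.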

Other observations

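A few transcripts were switched between high and low among libraries of the same time. A spread of 6 log2 units or more over the 3 libraries of a group was found in 361 transcripts at 4 dpl and in 234 at 6 hpl, of 847463 tested. Among the 4208 with a mean of 1000 or more it was found in 20 at 4 dpl (0.475%) and in 43 at 6 hpl (1.02%). Of the 562 transcripts with such a spread at either time, 43 were called, where 3.92% of all tested were called. Of these 43, 34 had the wide group at 6 hpl and 9 had it at 4 dpl, and 37 were lower at 4 dpl. A spread this wide needs a high library in the group, which favors calls with that group higher. The direction of these calls is therefore a description. Of the calls that differed by 5 log2 units or more, 2 of 134 that rose and 20 of 335 that fell had such a group. Leaving all of them out gave 33656 calls, 18162 higher and 15494 lower. The libraries pooled wild-caught animals, and what separates the libraries in these transcripts was not tested.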
